A study of Drosophila melanogaster with 10 samples.

Results

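Eye-antenna discs of early third-instar Drosophila melanogaster larvae that expressed Notch[intra2], an intracellular form of the Notch receptor that signals without ligand, were compared with discs that expressed GFP. The comparison rests on the arrays whose titles name each transgene, 2 for Notch[intra2] and 2 for GFP, which are 4 of the 10 arrays of the series. The Notch[intra2] discs were ey-Gal4/UAS-Notch[intra2] and the GFP discs were ey-Gal4/UAS-GFP. The other arrays, 2 per genotype, were ey-Gal4, UAS-Delta/UAS-GFP (Delta), ey-Gal4/UAS-COX7a-RNAi with the hairpin v106661 (COX7a RNAi) and ey-Gal4, UAS-Delta/UAS-COX7a-RNAi (Delta with COX7a RNAi), and they entered the fit as further estimates of the spread. All 5 genotypes carried the ey-Gal4 driver, which uses regulatory sequence of the eyeless gene, and each sample pooled 20 to 30 discs taken 96 h after egg laying. The Notch[intra2] discs carried no GFP transgene per the labels, so in the comparison with GFP the presence of the Notch fragment and the absence of GFP cannot be told apart. Of the other genotypes, Delta carried the GFP transgene and those with COX7a RNAi did not. The 2 replicates of a genotype are called biological by the study, and no further detail separates their cultures. A pooled disc is a mixture of cell types, and in it fewer cells of a type and less RNA per cell cannot be told apart.

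Notch is a transmembrane receptor that is cut when it binds Delta or Serrate on a neighbouring cell. Its freed intracellular part enters the nucleus, where it joins Suppressor of Hairless and Mastermind and activates target genes, first among them the Enhancer of split genes, which mostly encode repressors. In the eye disc Notch is activated along the border between its dorsal and ventral sides, where it promotes growth through the Pax gene eyegone and the cytokine Unpaired, and later it limits which cells become photoreceptors.

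Values are log2 array signals, and differences are log2 fold changes, Notch[intra2] minus GFP, ± standard error (limma, n = 2 arrays for each genotype). A call means an adjusted p (Benjamini-Hochberg, over the 8702 genes tested) under 0.05. In all 1144 genes were called, 13.1% of those tested, with 525 higher (6.03%) and 619 lower (7.11%), and the median over all genes tested was 0.03. Among the 246 genes called with a change of at least 2-fold the split was 74 higher and 172 lower. The 2 GFP arrays did not overlap with the 2 Notch[intra2] arrays for 63.3% of the genes tested, so a lack of overlap alone says little about a gene. The replicates correlated across genes at Pearson's r of 0.9965 for GFP and 0.9956 for Notch[intra2], and the replicates lay at least 1 log2 unit apart for 37 genes in GFP and 48 in Notch[intra2]. Genes of the eye-antenna disc had a mean of 10.80 on both GFP arrays and of 10.06 and 9.97 on the Notch[intra2] arrays, with 9 of 9 above the intensity floor of 4.66 in GFP and 8 of 9 in Notch[intra2]. These genes moved in both directions: 2 were called higher and 3 lower (55.6%, against 13.1% of all genes tested). Their median was -0.20, with a range from -3.95 for ss to 0.40. The mean includes the falls of ss and Dll, which are given below with the antennal genes. The number of arrays limits the precision: without 1 of the 4 arrays compared, which leaves 1 array in its genotype and a spread pooled from the others, 545 (GFP replicate 1), 555 (GFP replicate 2), 578 (Notch[intra2] replicate 1) and 592 genes (Notch[intra2] replicate 2) were called.

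Most of the Enhancer of split complex rose. Of 10 measured members 8 passed the filter on low signals, with a median of 1.30. Of those 8, 6 were called higher and none lower (75.0%, against 13.1% of all genes tested). E(spl)m2-BFM, a member of the Bearded family, stood at 10.60 and 10.45 on the GFP arrays and at 12.78 and 12.76 on the Notch[intra2] arrays, a rise of 2.25 ± 0.17 (adjusted p = 9.88e-05). E(spl)m3-HLH, a basic helix-loop-helix repressor, went from 11.33 and 11.44 to 12.97 and 12.98 (1.59 ± 0.06, adjusted p = 2e-06). For both genes the arrays of the 2 genotypes lay well apart, and the replicates differed by at most 0.15. Of the other repressor genes, E(spl)m7-HLH stood at 8.80 and 9.07 in GFP and 10.32 and 10.36 in Notch[intra2] (1.41 ± 0.29, adjusted p = 0.0148), E(spl)mbeta-HLH at 10.89 and 10.99 against 12.05 and 12.22 (1.19 ± 0.15), and E(spl)m5-HLH at 6.62 and 6.84 against 8.03 and 7.72 (1.14 ± 0.15). The Bearded family member E(spl)m4-BFM rose by 1.42 ± 0.27 (adjusted p = 0.01), from 11.29 and 11.45 to 12.80 and 12.78.

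The tested members that were not called also stood higher on both Notch[intra2] arrays than on either GFP array, though such a lack of overlap was found for 63.3% of all genes tested. E(spl)malpha-BFM stood at 9.03 and 9.23 in GFP and at 10.32 on both Notch[intra2] arrays (1.19 ± 0.46, adjusted p = 0.131), and E(spl)mdelta-HLH at 10.04 and 10.12 against 11.23 and 11.10 (1.09 ± 0.35, adjusted p = 0.079). Their standard errors came from the spread of all 5 genotypes, and in the COX7a RNAi genotype the replicates of these genes lay more than 1 unit apart. E(spl)m6-BFM (3.02 and 3.17 in GFP, 3.45 and 3.26 in Notch[intra2]) and Kaz-m1 (4.03 and 4.06, against 4.24 on both) lay under the floor everywhere in this comparison and were not tested. The calls for E(spl)m4-BFM (highest adjusted p 0.071) and E(spl)m7-HLH (0.0991) were lost without GFP replicate 1 or either Notch[intra2] replicate, and that for E(spl)m7-HLH also without GFP replicate 2.

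**Figure D1:**
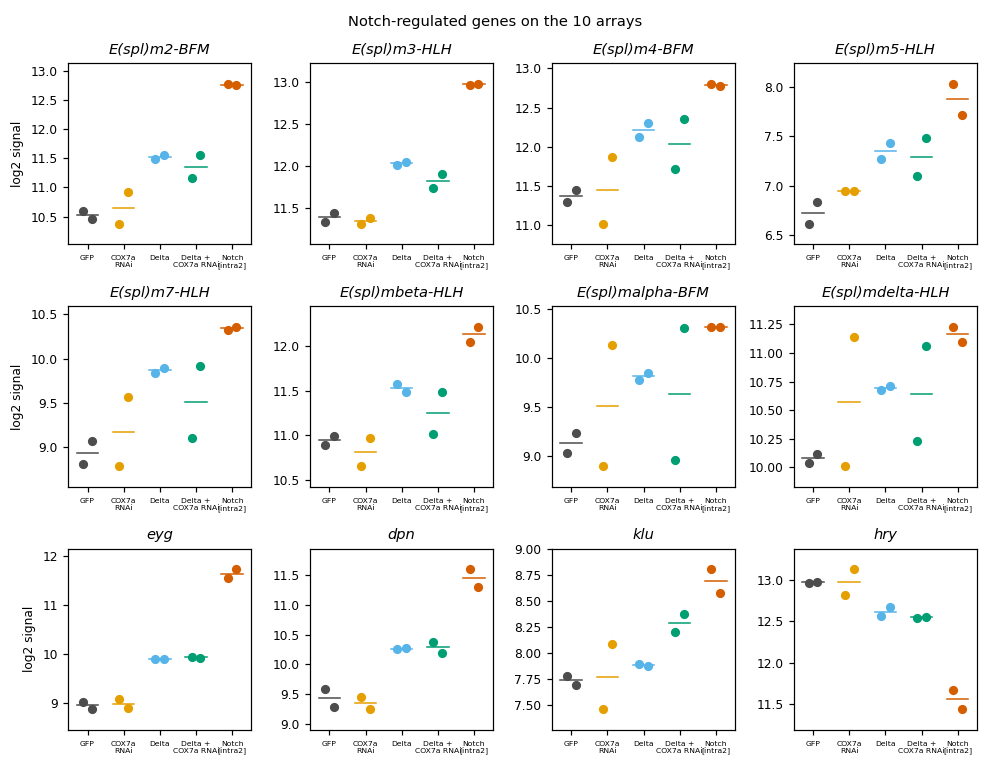
Log2 signal of 8 Enhancer of split genes and of eyg, dpn, klu and hry on all 10 arrays, with 2 points per genotype (left replicate 1, right replicate 2) and a line at their mean. Each panel has its own vertical scale, and the 2 Notch[intra2] arrays stand above both GFP arrays in every panel but that of hry, where they stand below.

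Among 5 tested genes of a list of other Notch-regulated transcription factors, 3 were higher and 2 lower. All 5 were thus called, against 13.1% of all genes tested. eyg, the Pax gene through which Notch promotes eye growth, rose from 9.02 and 8.87 to 11.55 and 11.72 (2.69 ± 0.08, adjusted p = 7.36e-07). dpn, a Hes-type repressor known from neural stem cells, rose from 9.58 and 9.28 to 11.60 and 11.30 (2.03 ± 0.13). klu, a zinc finger gene, rose from 7.78 and 7.69 to 8.80 and 8.57 (0.95 ± 0.18, adjusted p = 0.00942). The repressor gene hairy, listed as hry, moved the other way, from 12.97 and 12.98 to 11.67 and 11.44 (-1.42 ± 0.10, adjusted p = 6.85e-05), and the homeobox gene ct fell by 0.66 ± 0.16. Of 13 proneural and neurogenic genes 2 rose and 1, sens, fell (23.1%, against 13.1% of all genes tested). emc, an antagonist of proneural proteins, rose from 12.77 and 12.78 to 13.54 and 13.50 (0.74 ± 0.05, adjusted p = 4.28e-05), and Brd, the founding member of the Bearded family, rose by 0.47 ± 0.12 (adjusted p = 0.0381). The proneural gene ato, which starts photoreceptor formation, stood at 9.69 and 9.62 in GFP and 9.68 and 9.76 in Notch[intra2] and was not called (0.06 ± 0.25, adjusted p = 0.912). With the mean of its probe sets klu was at 0.53, still called (adjusted p = 0.0117). The call for klu was lost without GFP replicate 2 or Notch[intra2] replicate 1 (highest adjusted p 0.0746), that for ct without any 1 of the 4 arrays compared (0.131), and that for Brd without any GFP, Delta or Notch[intra2] array (0.206).

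Genes of the pathway's own machinery were called at about the share of all genes. Of 15 tested genes for ligands, processing enzymes and regulators of the receptor 2 were called (13.3%, against 13.1% of all genes tested), and the median of the list was -0.06. fng, the glycosyltransferase that sets which ligand Notch responds to, stood at 12.92 and 13.04 in GFP and at 12.27 and 12.28 in Notch[intra2] (-0.70 ± 0.08, adjusted p = 0.000832). numb, an inhibitor of Notch inherited by 1 daughter of a dividing precursor, stood at 11.55 and 11.57 against 11.77 and 11.71 (0.18 ± 0.05, adjusted p = 0.049). The ligand gene Delta stood at 11.20 and 11.16 against 11.35 and 11.46, which did not pass (0.23 ± 0.15, adjusted p = 0.372). The protease gene kuz (0.14 ± 0.08) and Psn, the presenilin gene (-0.14 ± 0.04, adjusted p = 0.0713), were not called either. limma called none of 7 genes for the nuclear complex and its co-repressors, with 1 at an unadjusted p under 0.05, 1 with array weights and 0 in an ordinary linear model. The list held mam (-0.05 ± 0.08), the co-repressor gene gro (11.28 and 11.27 in GFP, 11.24 and 11.30 in Notch[intra2]) and Bx42 (0.14 ± 0.05, adjusted p = 0.0861). The numb call was lost without any GFP, Delta or Notch[intra2] array (highest adjusted p 0.239). Notch and white were not analysed here, since neither has a probe set of its own name alone, so the transgene was checked only through its targets. COX7A, the target of the hairpin in other genotypes, stood at 13.41 and 13.32 in GFP and at 13.17 on both Notch[intra2] arrays (-0.19 ± 0.09, adjusted p = 0.209).

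Of 12 tested retinal determination genes 4 rose, 1 fell and 7 were not called, with a median of 0.09. Calls thus covered 41.7% of them, against 13.1% of all genes tested. Besides eyg, the Pax6 genes toy (12.27 and 12.23 against 12.70 and 12.59, 0.40 ± 0.05, adjusted p = 0.00103) and ey (11.43 and 11.46 against 11.76 and 11.87, 0.37 ± 0.06, adjusted p = 0.00639) and the zinc finger gene tsh (10.50 and 10.53 against 10.90 and 11.0, 0.44 ± 0.06) were higher. Optix, a Six-family gene that helps the furrow to start, was lower (11.86 and 11.87 against 11.09 and 11.14, -0.75 ± 0.07, adjusted p = 0.00024). Their partners so (0.06 ± 0.05), eya (-0.20 ± 0.07) and dac (-0.04 ± 0.07) were not called. The call for ey was lost without GFP replicate 1 or Notch[intra2] replicate 2 (highest adjusted p 0.0543).

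The 4 genes of the dorsal side named below were called lower. All 13 measured genes of the dorsoventral and morphogen list were tested, and the median was -0.73. Of these 8 were lower and 1 was higher (69.2%, against 13.1% of all genes tested). ara, caup and mirr, the linked homeobox genes of the Iroquois complex that give dorsal identity, were all called: ara went from 8.75 and 8.87 to 6.23 and 6.25 (-2.57 ± 0.06, adjusted p = 3.44e-07), caup from 10.20 and 10.26 to 8.81 and 8.66 (-1.49 ± 0.09), and mirr from 10.01 and 9.98 to 8.83 and 8.93 (-1.11 ± 0.07). pnr, a GATA factor of the dorsal margin that acts before them, fell from 7.91 and 7.99 to 7.0 and 6.93 (-0.99 ± 0.16, adjusted p = 0.00439). Both arrays of each genotype agreed closely for these 4 genes.

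Of the signalling genes on the same list, dpp, the BMP ligand, stood at 11.07 and 11.20 in GFP and at 10.42 and 10.40 in Notch[intra2] (-0.73 ± 0.10, adjusted p = 0.00242). bi, a T-box gene that responds to Dpp, fell from 11.56 and 11.46 to 9.32 and 9.02 (-2.34 ± 0.10, adjusted p = 4.85e-06), and the ligand gene Wnt6 fell by 0.97. The Dpp receptor gene tkv (0.12 ± 0.06) and the Hedgehog pathway genes hh (-0.11 ± 0.07), ptc (0.18 ± 0.12) and ci (0.07 ± 0.05) were not called. Outside the list, magu, a secreted modulator of the Dpp gradient, rose from 9.0 and 9.03 to 11.57 and 11.67 (2.61 ± 0.08, adjusted p = 7.36e-07). On the list, fng was the remaining lower member, with the values given above. fj, a Golgi kinase that acts on Fat and Dachsous, was the member of the list called higher (0.35 ± 0.05). No dorsoventral or morphogen call named here was lost when 1 of the 10 arrays was left out.

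**Figure D2:**
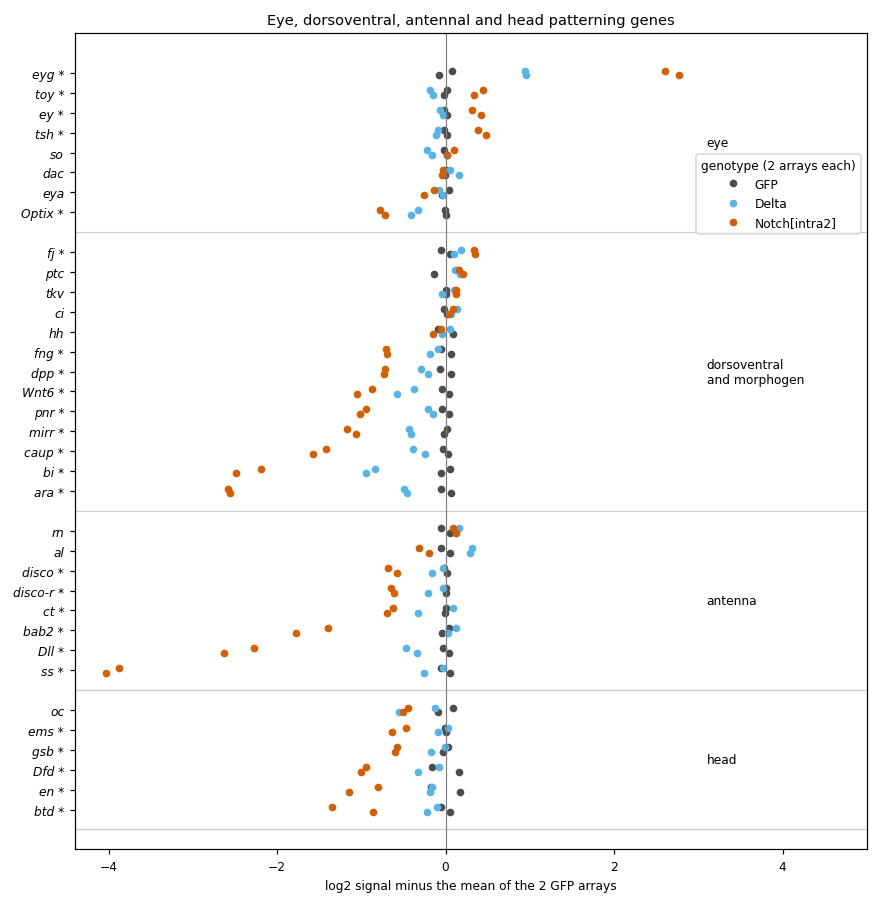
Log2 signal minus the mean of the 2 GFP arrays for eye, dorsoventral and morphogen, antennal and head genes, with 1 point per array for GFP, Delta and Notch[intra2] and an asterisk for genes called between Notch[intra2] and GFP. The Notch[intra2] points lie far to the left for ss, ara, Dll, bi and bab2 and far to the right for eyg, and near 0 for so, dac, tkv and ci.

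Of 15 tested genes of antennal identity and patterning 6 were called lower, none higher and 9 were not called, and the median was -0.62. The count of lower genes was 3 without Notch[intra2] replicate 2. ss, the selector of the distal antenna, fell from 7.91 and 8.02 to 4.09 and 3.93, which is under the floor (-3.95 ± 0.49, adjusted p = 0.0012). Dll, the gene of the distal appendage, fell from 9.66 and 9.73 to 7.42 and 7.06 (-2.46 ± 0.27, adjusted p = 0.000667), and its other probe sets gave -2.94 and -0.94. bab2, a BTB gene of the antennal joints, fell from 6.58 and 6.50 to 5.14 and 4.77 (-1.59 ± 0.27), and disco and its neighbour disco-r fell by 0.62 ± 0.09 and 0.63 ± 0.12. salm, a zinc finger gene of the antenna, stood at 7.44 and 8.07 in GFP and 5.75 and 4.86 in Notch[intra2], but its call did not pass (-2.45 ± 0.72, adjusted p = 0.0602). The homeobox genes al (-0.26 ± 0.14), Lim1 (-0.04 ± 0.15) and B-H1 (-0.90 ± 0.43) and the zinc finger gene rn (0.10 ± 0.10) were not called. The call for bab2 was lost without Notch[intra2] replicate 2 (highest adjusted p 0.0557) and that for disco-r without any 1 of the 4 arrays compared (0.0663). Of the list, ap, bab1, Sox15 and tap, did not pass the filter.

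Among 9 tested head selector and Hox genes 5 were lower and none was higher, with a median of -0.55. This is a share of 55.6%, against 13.1% of all genes tested. The count was 3 without GFP replicate 2 and 2 without Notch[intra2] replicate 2. btd, a zinc finger gene of the head segments, fell from 7.95 and 8.06 to 6.66 and 7.14 (-1.11 ± 0.18, adjusted p = 0.00508), and the Hox gene Dfd from 6.25 and 6.57 to 5.47 and 5.41 (-0.97 ± 0.19, adjusted p = 0.0124). The segment polarity genes en (-0.98 ± 0.18) and gsb (-0.58 ± 0.10) and the homeobox gene ems (-0.55 ± 0.09) were lower too. The gene oc, the homeobox gene of the ocelli, stood at 8.18 and 8.00 against 7.64 and 7.59 and did not pass (-0.48 ± 0.16, adjusted p = 0.0833). The calls for Dfd (highest adjusted p 0.0931) and en (0.0722) were lost without GFP replicate 2 or Notch[intra2] replicate 2, that for Dfd also without Notch[intra2] replicate 1, and that for gsb (0.0625) without GFP replicate 1 or Notch[intra2] replicate 2.

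Genes of the morphogenetic furrow and the first photoreceptors included 7 of 15 tested that were lower and none that was higher. Their called share was 46.7%, against 13.1% of all genes tested, and the list median was -0.54. The count was 4 without GFP replicate 1 and 3 without GFP replicate 2 or Notch[intra2] replicate 2. svp, a nuclear receptor of outer photoreceptors, fell from 7.14 and 7.09 to 5.24 and 4.83 (-2.08 ± 0.34, adjusted p = 0.00515). sens, a zinc finger gene of the founder photoreceptor, fell from 7.26 and 7.15 to 5.86 and 5.34 (-1.6 ± 0.37, adjusted p = 0.026). The cell recognition genes hbs (-0.95 ± 0.20) and rst (-0.75 ± 0.14), the axonal gene futsch (-0.62 ± 0.16) and hry and aos made up the rest. The neuronal RNA-binding gene elav stood at 9.95 and 9.91 against 9.76 and 9.78 and was not called (-0.16 ± 0.11, adjusted p = 0.403). The other probe sets of futsch gave 0.25 and -0.02. With the mean of its probe sets svp was at -0.87, still called (adjusted p = 0.00538). The calls for sens (highest adjusted p 0.141) and hbs (0.106) were lost without either GFP replicate or Notch[intra2] replicate 2, that for sens also without Notch[intra2] replicate 1, that for rst (0.0631) without GFP replicate 2 or Notch[intra2] replicate 2, and that for futsch (0.198) without any GFP, Delta or Notch[intra2] array.

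The EGF and FGF receptor pathways had 6 of 14 genes lower and none higher, with a median of -0.24. Against 13.1% of all genes tested, 42.9% of these were called. bnl, the FGF ligand that attracts tracheal branches, fell from 8.63 and 8.64 to 4.72 and 4.46, whose mean is under the floor (-4.04 ± 0.13, adjusted p = 7.36e-07). Its 2 other probe sets gave -0.45 and -1.13, so the size of the fall depends on the probe set. htl, an FGF receptor known from mesoderm and glia, fell from 6.67 and 6.62 to 5.02 and 4.91 (-1.68 ± 0.25, adjusted p = 0.00344). Of the feedback inhibitors that these pathways induce, aos stood at 9.09 and 9.12 against 8.03 and 7.92 (-1.13 ± 0.12, adjusted p = 0.000494), sty at 10.83 and 10.81 against 10.10 and 10.03 (-0.75 ± 0.06), and kek1 at 7.82 and 7.70 against 7.28 and 7.17 (-0.54 ± 0.11). The receptor gene Egfr was lower by a small step (9.64 on both GFP arrays, 9.43 and 9.30 in Notch[intra2], -0.28 ± 0.07, adjusted p = 0.0462). The call for kek1 was lost without any 1 of the 4 arrays compared (highest adjusted p 0.113), and that for Egfr without any GFP, COX7a RNAi or Notch[intra2] array (0.221).

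Among growth genes 1 to 4 members of each list were called. The called share was below the 13.1% of all genes tested for the JAK/STAT and glycolytic lists (7.14% for the latter). The share was larger for the other lists, from 18.8% of cell cycle genes to 28.6% of ribosome biogenesis genes. upd1, the Unpaired ligand of the JAK/STAT pathway, rose from 9.45 and 9.49 to 10.29 and 10.20 (0.77 ± 0.10, adjusted p = 0.00167) and was the 1 gene called of 10 on its list, where the receptor gene dome (-0.03 ± 0.06) and Stat92E (-0.03 ± 0.06) were not called. In the Fat and Hippo list of 14, ds, the protocadherin ligand of Fat, fell from 11.61 and 11.70 to 10.93 and 10.96 (-0.71 ± 0.10, adjusted p = 0.00196), fj rose, and yki, the growth-promoting coactivator, stood at 10.11 and 10.09 against 10.26 on both arrays (0.16 ± 0.04, adjusted p = 0.0485). Of 16 cell cycle and replication genes 3 rose and none fell, with a median of 0.06: Mcm2 (0.28 ± 0.04), Mcm5 (0.21 ± 0.04) and aurB (0.18 ± 0.04). Of 14 ribosome biogenesis genes 4 rose and none fell, with a median of 0.10, among them Polr1B, a subunit of RNA polymerase I, and bys (0.20 ± 0.05 and 0.18 ± 0.04). Eno, the enolase gene, was the 1 glycolytic gene of 14 called (12.96 and 12.95 against 12.68 and 12.65, -0.28 ± 0.05). In the insulin and TOR list 3 of 12 rose: foxo, the transcription factor restrained by insulin signalling, from 8.95 and 8.88 to 9.47 and 9.38 (0.51 ± 0.08, adjusted p = 0.00399), Sdr, a secreted decoy of the insulin receptor, by 0.85 ± 0.18, and the relaxin-like gene Ilp8 by 1.26 ± 0.24.

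Several of these growth calls lay near the threshold, and they were lost with differences that moved little: with 1 array left out Eno ran from -0.30 to -0.27, yki from 0.15 to 0.16, Mcm5 from 0.19 to 0.24, aurB from 0.15 to 0.20, bys from 0.14 to 0.22 and Polr1B from 0.17 to 0.23. Without any 1 of the 4 arrays compared 1 cell cycle gene was called, and the ribosome biogenesis list had 0 calls without GFP replicate 2, 1 without either Notch[intra2] replicate and 2 without GFP replicate 1. The insulin and TOR list had 1 higher gene without GFP replicate 2 or Notch[intra2] replicate 1. The call for yki was lost without any array but those of COX7a RNAi (highest adjusted p 0.215) and with the replicate number as a block (adjusted p = 0.0517). Those for Mcm5 (0.114), without any 1 of the 4 arrays compared, and for aurB (0.201) and bys (0.206), without any GFP, Delta or Notch[intra2] array, were lost. The call for Polr1B (0.221) was lost without any GFP, Delta or Notch[intra2] array or Delta with COX7a RNAi replicate 1. Eno (0.0526) was lost without GFP replicate 1 or Notch[intra2] replicate 2, Ilp8 (0.0902) without GFP replicate 2 or Notch[intra2] replicate 1, and Sdr (0.107) without either GFP replicate or Notch[intra2] replicate 1.

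**Figure D3:**
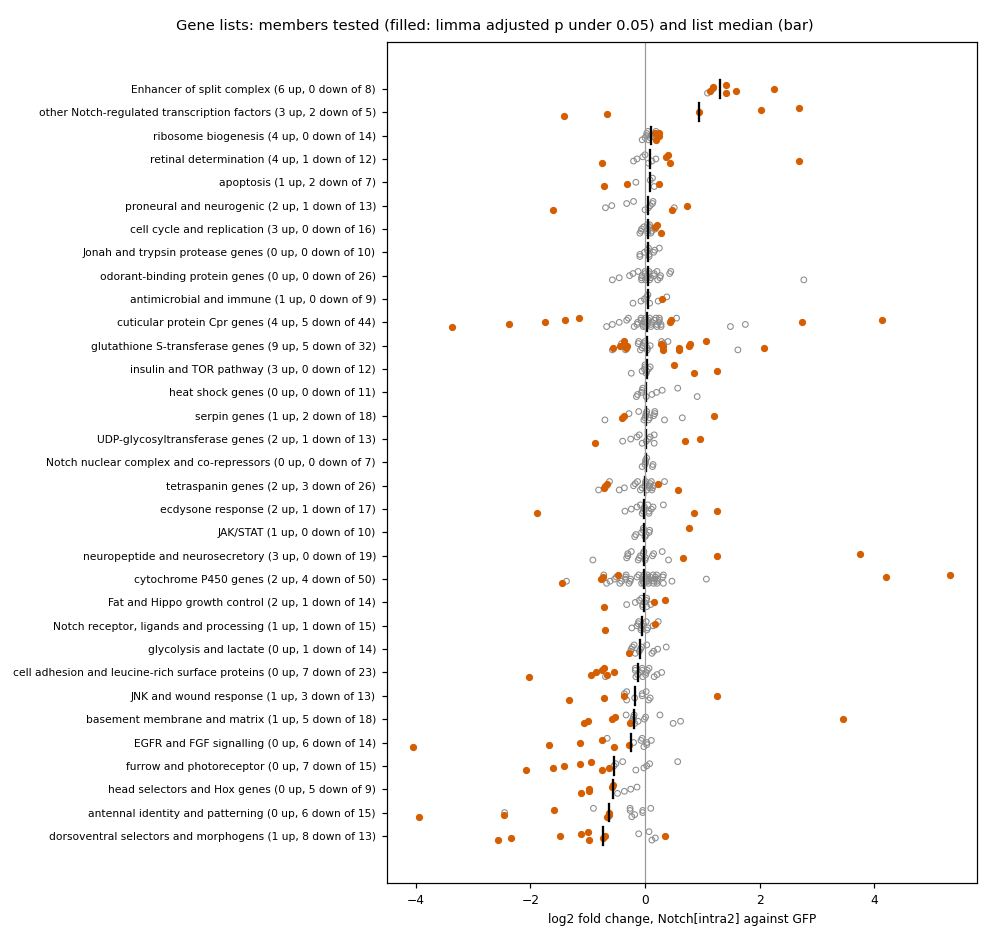
Log2 fold change of Notch[intra2] against GFP for the tested members of 33 gene lists and gene families, ordered by their median (black bar), with called genes filled. The Enhancer of split complex has the highest median, 1.30, and the dorsoventral and morphogen list the lowest, -0.73, while most lists have medians within 0.2 of 0.

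The genes with the highest fold changes were mostly outside the patterning lists, and several lay near or under the floor in GFP. Cyp4p2 and Cyp4p1, neighbouring cytochrome P450 genes, went from 5.31 and 5.11 to 10.40 and 10.66 (5.32 ± 0.12, adjusted p = 3.44e-07) and from 5.34 and 4.76 to 9.22 and 9.28 (4.20 ± 0.18). Ekar, a kainate-type glutamate receptor of the eye, went from 4.06 and 4.39, under the floor, to 9.04 and 9.70 (5.15 ± 0.29). All 4 arrays of each of these genes lay at least 3 units apart between the genotypes. Also among the 20 highest were t, the tan hydrolase of pigment and histamine metabolism (4.30 on both GFP arrays, under the floor, 6.79 and 7.31 in Notch[intra2], 2.75 ± 0.18), sit, a fatty acid elongase gene (5.37 and 5.31 against 7.81 and 8.12, 2.63 ± 0.12), and CtsL2, named as a cathepsin (4.62 and 4.84 against 7.40 and 7.47, 2.71 ± 0.17). The uncharacterised genes CG14075 (3.59), CG32373 (3.52), CG15905 (2.44), CG42807 (2.33), CG10621 (2.26) and CG15236 (2.20) completed the group together with eyg, magu, E(spl)m2-BFM, the cuticle genes Cpr56F and Cpr66D, and Akh, Ppn and Nplp2, which are described with the other cell types. CG10621 and CG15236 were under the floor in GFP.

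Gene families of metabolism and cuticle held both rises and falls. Of the cytochrome P450 genes 6 of 50 were called, a share near the 13.1% of all genes tested. The share was 43.8% for glutathione S-transferase genes, 20.5% for Cpr genes and 23.1% (3 of 13) for UDP-glycosyltransferase genes. Of 50 tested cytochrome P450 genes 2 rose and 4 fell, with a median of -0.02 and 1 fall without either GFP replicate or Notch[intra2] replicate 2, and Cyp6a17 (9.80 and 9.87 against 8.29 and 8.49, -1.45 ± 0.16) and Cyp28d1 (-0.76 ± 0.19) had the largest falls. Of 32 glutathione S-transferase genes 9 rose and 5 fell, with a median of 0.04. These counts were 4 and 1 without GFP replicate 1, 6 and 2 without GFP replicate 2, and 5 and 1 without Notch[intra2] replicate 2. GstD6 rose from 3.76 and 3.77, under the floor, to 5.87 and 5.82 (2.08 ± 0.13, adjusted p = 3.38e-05), GstD5 from 3.92 and 3.96, also under the floor, to 4.89 and 5.13 (1.07 ± 0.13), GstD4 from 4.64 and 4.74 to 5.67 and 5.28 (0.78 ± 0.17), and GstD3 from 11.40 on both arrays to 12.12 and 12.21 (0.77 ± 0.16). Of 44 Cpr genes, which encode cuticle proteins, 4 rose and 5 fell, or 2 and 3 without GFP replicate 2, 3 and 3 without Notch[intra2] replicate 1, and 3 and 2 without Notch[intra2] replicate 2. Among them Cpr56F stood at 7.05 and 7.02 against 11.09 and 11.25 (4.13 ± 0.30), Cpr66D at 6.35 on both against 9.06 and 9.11 (2.74 ± 0.31), Cpr49Ac at 8.97 and 8.76 against 6.36 and 6.63 (-2.37 ± 0.15) and Cpr78E at 9.32 and 9.01 against 6.12 and 5.48 (-3.36 ± 0.62). Of 13 UDP-glycosyltransferase genes Ugt35A1 (0.96 ± 0.16) and Ugt36A1 (0.69 ± 0.08) rose and Ugt36D1 (-0.87 ± 0.14) fell. The counts of rises depended on the filter on low signals. With a floor of 6.39, the 60th percentile, 5 glutathione S-transferase genes rose and 5 fell, and 2 Cpr genes rose and 5 fell. The call for Cyp28d1 was lost without any GFP, Delta or Notch[intra2] array (highest adjusted p 0.161), that for GstD3 without any 1 of the 4 arrays compared (0.0934), that for GstD4 without either GFP replicate or Notch[intra2] replicate 1 (0.116), and that for Cpr78E without GFP replicate 1 or Notch[intra2] replicate 2 (0.0697).

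Some called genes were neighbours in the genome. In the gene order of the Release 6 plus ISO1 MT assembly, 8666 tested genes could be placed, and 16 stretches of at least 3 consecutive tested genes were called in the same direction, 8 higher and 8 lower. Of all genes tested 6.03% were called higher and 7.11% lower, and how many stretches these shares alone would give was not tested. The longest held 5 genes each, E(spl)m2-BFM to E(spl)m7-HLH and GstD3 to GstD7, both higher and both on chromosome arm 3R. ara, caup and mirr formed a stretch of 3 lower genes on 3L, hig, Cyp4p2 and Cyp4p1 a stretch of 3 higher genes on 2R, and Brd, Ocho and CG5114 a stretch of 3 higher genes on 3L. Near-identical neighbours such as the GstD genes may share probes, which was not tested.

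The lowest fold changes among called genes also included many without a known role. CG13056 fell from 10.28 and 10.61 to 6.07 and 6.25 (-4.28 ± 0.13, adjusted p = 7.36e-07), and Ama, a secreted immunoglobulin-type ligand of Neurotactin, from 9.16 and 9.04 to 6.12 and 6.08 (-3.00 ± 0.58, adjusted p = 0.0116). nord fell from 10.25 and 10.18 to 7.75 and 7.56 (-2.56 ± 0.18), and Agpat2, named as an acyltransferase of phospholipid synthesis, from 7.28 and 6.99 to 4.94 and 4.69 (-2.33 ± 0.17). The genes CG4250 (-3.07), CG4998 (-2.84), CG6739 (-2.68), CG13041 (-2.49), CG42326 (-2.42, but -1.12 with the mean of its probe sets), CG6357 (-2.41) and CG17211 (-2.39) were in the same range, with CG6357 under the floor in Notch[intra2]. The remaining members of the 20 were ss, bnl, Cpr78E, ara, Dll, bi, Cpr49Ac, Rnf11 and CR44101. CG42326 stayed called with that mean (adjusted p = 0.000155). The Ama call was lost without any 1 of the 4 arrays compared (highest adjusted p 0.0728), and that for Cpr78E without GFP replicate 1 or Notch[intra2] replicate 2 (0.0697).

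**Figure D4:**
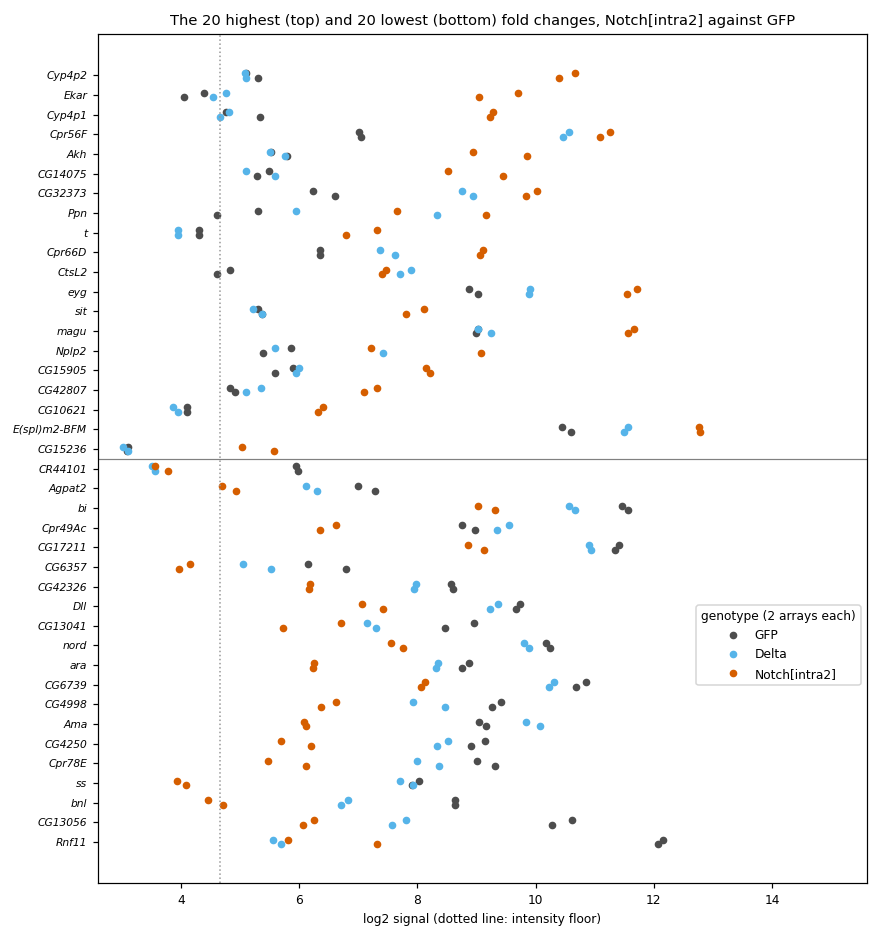
Log2 signal on the GFP, Delta and Notch[intra2] arrays for the 20 called genes that rose most and the 20 that fell most without overlap between GFP and Notch[intra2] arrays, with the intensity floor as a dotted line. For Rnf11, CR44101, Cpr56F and CtsL2 the Delta points lie with or near the Notch[intra2] points, and for Cyp4p2, Ekar, Akh, magu and ss they lie with the GFP points.

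Cell surface and matrix genes were lower where called, apart from Ppn. Calls covered 30.4% of the adhesion and 33.3% of the matrix genes, against 13.1% of all genes tested. Of 23 adhesion genes 7 were lower, none higher and the median was -0.13, with 4 lower without GFP replicate 2 or Notch[intra2] replicate 2. kirre, an immunoglobulin-type recognition protein known from muscle founder cells and the eye, fell from 8.08 and 7.74 to 6.12 and 5.65 (-2.02 ± 0.26, adjusted p = 0.00144), with -0.16 at its other probe set, and Nrt, the Neurotactin gene, fell from 7.69 and 7.84 to 7.08 and 6.73 (-0.86 ± 0.13). hbs and rst, of the same recognition family as kirre, were lower, as given above. Of 18 basement membrane and matrix genes 5 were lower and 1 higher, with 2 lower and 0 higher without GFP replicate 2 or either Notch[intra2] replicate. SPARC, a collagen-binding protein, stood at 8.77 and 9.28 against 8.01 and 7.93 (-1.06 ± 0.21, adjusted p = 0.0117), Timp, an inhibitor of metalloproteases, at 6.82 and 6.65 against 5.79 and 5.68 (-1.0 ± 0.12), and LanA, a laminin subunit, at 11.52 on both against 11.04 and 10.87 (-0.57 ± 0.10). The type IV collagen genes Col4a1 (-0.20 ± 0.34) and vkg (-0.01 ± 0.26) were not called. The calls for hbs (highest adjusted p 0.106) and rst (0.0631) were lost as described, that for SPARC (0.0798) without GFP replicate 2 or either Notch[intra2] replicate, and that for LanA (0.0616) without Notch[intra2] replicate 2.

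Calls in the stress, hormone and immune lists went in both directions. Against 13.1% of all genes tested, 42.9% of the apoptosis genes, 30.8% of the JNK and wound genes, 17.6% of the ecdysone response genes and 11.1% of the immune genes were called. The share was 15.8% for the neuropeptide genes. In the list of JNK and wound genes 3 of 13 were lower and 1 higher, namely scaf (9.01 and 8.77 against 7.61 and 7.53, -1.32 ± 0.16), the TNF ligand gene egr (-0.72 ± 0.18), its receptor gene grnd (9.49 and 9.57 against 9.17 and 9.16, -0.36 ± 0.06) and Ilp8. In the apoptosis list of 7 tested genes the initiator caspase gene Dronc was lower with egr (-0.31 ± 0.06) and p53 was higher (0.24 ± 0.06). Of 17 ecdysone response genes ImpE1 (0.85 ± 0.13, but -0.05 at its other probe set) and Ilp8 rose and ImpE2 fell (7.95 and 7.91 against 5.85 and 6.22, -1.89 ± 0.22). With the mean of its probe sets egr was at -0.41 and not called (adjusted p = 0.15), and the apoptosis list then had 1 call. Without GFP replicate 1 or Notch[intra2] replicate 2 the apoptosis list had 0 calls, and without GFP replicate 2 the JNK and wound list had 1. The NF-kB gene Rel rose from 10.11 and 10.13 to 10.43 and 10.41 (0.30 ± 0.04), 1 of 9 immune genes. ITP, the ion transport peptide gene, rose from 10.41 and 10.37 to 11.05 on both arrays (0.66 ± 0.08, adjusted p = 0.001), 1 of 3 calls among 19 neuropeptide genes with Akh and Ilp8.

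Calls covered 16.7% of the serpin and 19.2% of the tetraspanin genes, against 13.1% of all genes tested. Of 18 serpin genes Spn42De rose (6.07 and 5.87 against 7.13 and 7.20, 1.2 ± 0.11) and 2 fell, among them Spn55B (-0.40 ± 0.05). Of 26 tetraspanin genes 2 rose, led by Tsp42Ea (11.38 and 11.50 against 11.93 and 12.09, 0.57 ± 0.06), and 3 fell, Tsp42Ek, Tsp42El and Tsp42Eo, by 0.67 to 0.71. limma called none of 26 odorant-binding protein genes (1 at an unadjusted p under 0.05), 10 Jonah and trypsin protease genes (0) and 11 heat shock genes (2). An ordinary linear model called 1 heat shock gene and none of the others, array weights called 2 heat shock genes and 1 odorant-binding protein gene, and a fit of only the groups compared called 1 odorant-binding protein gene. The arrays of the genotypes overlapped for Hsp26 (9.63 and 8.63 against 10.82 and 9.27) and for Jon66Ci (5.55 and 5.26 against 5.50 and 5.82). The odorant-binding gene Obp28a stood at 4.70 and 4.87 in GFP and at 4.84 and 10.27 in Notch[intra2], high on replicate 2 alone. Several calls of these lists did not hold with fewer arrays: egr (highest adjusted p 0.217) was lost without any GFP or Delta array or Notch[intra2] replicate 2, p53 (0.219) without any GFP, Delta or Notch[intra2] array, Dronc (0.0925) without GFP replicate 1 or Notch[intra2] replicate 2, grnd (0.0574) without GFP replicate 2, and Ilp8 (0.0902) without GFP replicate 2 or Notch[intra2] replicate 1. The calls for Tsp42Ek (0.231), Tsp42El (0.233) and Tsp42Eo (0.241) were lost without at least 6 of the 10 arrays in turn, each time including GFP replicate 2 and Notch[intra2] replicate 2, and the differences of Tsp42Ek (-1.0 to -0.42) and Tsp42Eo (-0.97 to -0.40) moved with the array left out.

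Markers of other cell types that the dissected tissue can hold moved in both directions. Called were 50.0% of glial, 37.5% of tracheal, 33.3% of muscle and 20.0% of peripodial markers, against 13.1% of all genes tested. Glial markers had a mean of 8.19 and 7.91 in GFP and of 7.41 and 7.31 in Notch[intra2], and 4 of 8 tested were lower. They were repo, the glial fate gene (8.68 and 8.44 against 6.67 and 6.16, -2.14 ± 0.23), wrapper, an immunoglobulin-type protein of ensheathing glia (6.0 and 6.03 against 4.28 and 4.68, under the floor on average, -1.54 ± 0.15), and the blood-brain barrier genes moody (-1.38 ± 0.18) and Mdr65 (-1.08 ± 0.26). The other 4 tested glial markers were not called, among them Gli (0.07 ± 0.04), loco (-0.03 ± 0.10) and nrv2 (-0.10 ± 0.06), and the median of the 8 was -1.07. Muscle markers had a mean of 8.60 and 8.52 against 7.74 and 7.69, with 4 of 12 lower: Act87E, a muscle actin gene (9.03 and 9.11 against 7.01 and 7.48, -1.82 ± 0.25), zfh1 (6.79 and 7.18 against 5.35 and 4.98, -1.81 ± 0.20), Mp20 (-1.6 ± 0.24) and Msp300 (-0.37 ± 0.10). Tracheal markers had a mean of 8.71 and 8.67 against 8.11 and 8.15, with 3 of 8 lower. Among them were the chitin-binding gene Gasp (13.36 and 13.26 against 11.92 and 11.96, -1.37 ± 0.06) and serp, a chitin deacetylase gene (-1.17 ± 0.10). Another 3 of the 8 tested tracheal markers had differences above 0, the highest at 0.04. Peripodial markers had 2 of 10 lower, pnr and dpp, and 4 without Notch[intra2] replicate 1. Whether these cells were fewer was not tested.

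Ring gland and haemocyte markers were uneven between replicates. Of the ring gland markers 11.1% and of the haemocyte markers 12.5% were called, near the 13.1% of all genes tested. Ring gland markers had a mean of 5.40 and 7.21 in GFP and of 8.23 and 7.21 in Notch[intra2], so that GFP replicate 2 and Notch[intra2] replicate 2 had the same mean. Akh, the adipokinetic hormone gene of the neurosecretory cells attached to the ring gland, was the 1 of 9 called (5.79 and 5.52 against 9.86 and 8.94, 3.75 ± 0.30, adjusted p = 0.000119), and no array of the 4 took this call away. Without GFP replicate 2, the GFP array with the higher ring gland mean, 5 of the 9 were called higher. spok, an ecdysone synthesis gene, stood at 3.83 and 9.35 in GFP and at 10.34 and 8.61 in Notch[intra2], with overlapping groups and no call (adjusted p = 0.234). Without Notch[intra2] replicate 2 or with array weights 4 of 8 tested haemocyte markers were called higher, and 0 without any 1 of the other 3 arrays compared. Haemocyte markers had a mean of 5.09 and 5.22 in GFP and of 6.04 and 5.32 in Notch[intra2], with 1 of 8 called in the fit of all arrays, Nplp2 (5.39 and 5.87 against 9.08 and 7.21, 2.51 ± 0.66, adjusted p = 0.0423). Ppn, the papilin gene of the matrix, followed the same array (4.61 and 5.31 against 9.16 and 7.66, 3.45 ± 0.95, adjusted p = 0.0492), while crq (-0.15 ± 0.06) and PPO2 (0.60 ± 0.18, adjusted p = 0.0679) were not called. The part that these cells had in the calls for Akh, Nplp2 and Ppn was not tested. Fat body markers (6.56 and 6.59 against 6.62 and 6.57), salivary gland markers (4.43 and 4.45 against 4.44 and 4.50) and neuronal markers (5.42 and 5.32 against 5.20 and 5.29) had means within 0.25 of each other, and 1 of their 15 tested genes, futsch, was called. The glial fate gene gcm lay under the floor on every array.

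The marker calls that depended on an array were these. Without GFP replicate 1 or either Notch[intra2] replicate the call for Mdr65 was lost (highest adjusted p 0.178), and without any 1 of the 4 arrays compared that for kni, the third tracheal marker (0.162). Msp300 (0.221) was lost without any array but those of Delta with COX7a RNAi. Nplp2 (0.222) was lost without either GFP replicate, any array with COX7a RNAi or Notch[intra2] replicate 1, where its difference ranged from 1.58 to 3.45. Ppn (0.254) was lost without any 1 of the 4 arrays compared or either Delta with COX7a RNAi replicate, where its difference ranged from 2.70 to 4.20, and with the replicate number as a block (adjusted p = 0.0698).

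**Figure D5:**
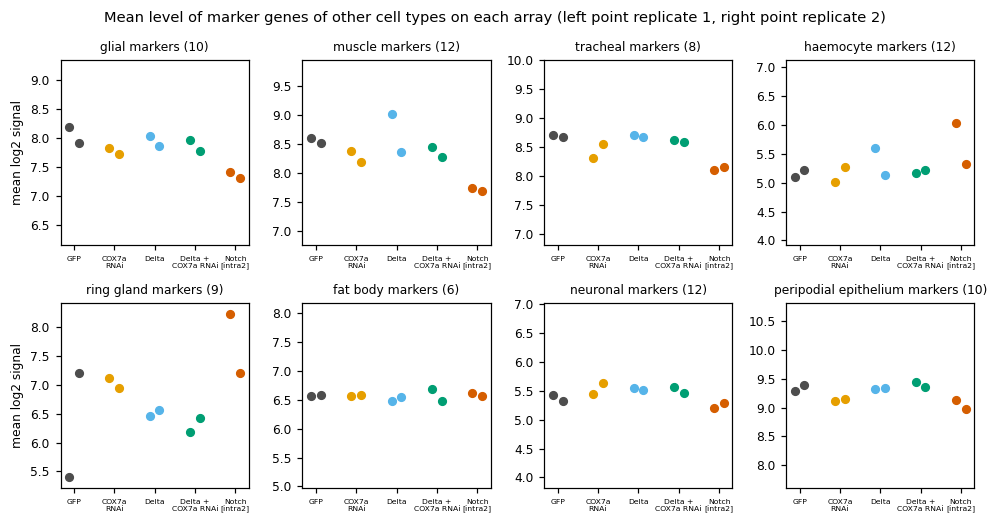
Mean log2 signal of the measured markers of 8 cell types (number of genes in brackets) on each of the 10 arrays, on vertical scales of equal length. The Notch[intra2] arrays are lowest of the 10 for glial, muscle and tracheal markers, and ring gland markers span from 5.40 on GFP replicate 1 to 8.23 on Notch[intra2] replicate 1.

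The series holds another genotype meant to raise Notch signalling, the discs with extra Delta ligand under the same driver. Against Delta 831 genes were called, 9.55% of those tested, with 283 higher (3.25%) and 548 lower (6.3%). Of the 8 tested Enhancer of split genes 3 were higher than in Delta discs, by 1.25 for E(spl)m2-BFM, 0.94 for E(spl)m3-HLH and 0.61 for E(spl)mbeta-HLH, and eyg (1.74) and dpn (1.19) were higher too. Of the 13 dorsoventral and morphogen genes 8 were lower than in Delta, with ara at -2.10 and bi at -1.45, and 6 of 15 antennal genes were lower, with ss at -3.81. Cyp4p2 stood at 5.10 and 5.09 in Delta, near its GFP level, and was 5.44 higher in Notch[intra2]. Genes for which the difference from Delta did not pass included Cpr56F (0.65, adjusted p = 0.232), CtsL2 (-0.36, adjusted p = 0.224), ImpE2 (-0.35, adjusted p = 0.369), CR44101 (0.14, adjusted p = 0.841) and Ugt36D1 (adjusted p = 0.992). The 2 comparisons share the Notch[intra2] arrays.

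Against the mean of the 3 genotypes other than GFP 1850 genes were called, 21.3% of those tested, with 786 higher and 1064 lower. The split turned to 1071 higher and 939 lower after a second quantile normalization and to 1017 and 865 with each array centred on the median of the genes tested, so no direction is read from it. Rnf11, a RING finger gene with the lowest fold change against GFP, was high in GFP alone: it stood at 12.07 and 12.16 in GFP, at 7.31 and 5.82 in Notch[intra2], at 5.70 and 5.56 in Delta and between 5.34 and 6.79 on the 4 arrays with COX7a RNAi. Its difference was -5.55 ± 0.46 against GFP (adjusted p = 0.00016) and 0.61 against the other 3 genotypes (adjusted p = 0.297). CR44101, which lay under the floor in Notch[intra2], stood at -2.29 ± 0.33 against GFP and -0.60 against the others (adjusted p = 0.155), and ImpE2 at -0.24 against the others (adjusted p = 0.385). For Cyp4p2 (5.33), Ekar (4.69), magu (2.35), eyg (2.04), ara (-2.24), ss (-3.97) and bnl (-3.16) the difference from the other 3 genotypes was called in the same direction as that from GFP. These values share the Notch[intra2] arrays with the comparison against GFP.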

How the data were processed

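RNA of pooled eye-antenna discs was measured on 10 Affymetrix 3' arrays. The authors deposited 1 table of log2 values with 18952 probe sets, and the submitters' processing notes name RMA, Transcriptome Analysis Console 3.0.0.466 and Affymetrix Expression Console, in no stated order. The scanner files were not used here. The 183 control probe sets were left out, and names came from the platform annotation: 1 gene symbol was given for 13647 probe sets, several for 402 and none for 4720, and 13544 of the single-gene probe sets matched a gene in the RefSeq table. Each of 11982 genes was represented by the probe set with the highest mean over the 10 arrays. The filter on low signals asked for 2 or more arrays over a floor of 4.66, the 40th percentile of all values, which left 8702 genes and removed 3280. Column medians ran from 5.15 to 5.21, and 8308 to 8491 genes per array lay above the floor.

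The test was limma 3.58.1 in R 4.3.3 (lmFit and eBayes with an intensity trend, two-sided, Benjamini-Hochberg adjustment over all genes tested), with 1 mean per genotype over all 10 arrays and 5 residual degrees of freedom. The code was tested on simulated data. p-values measure the spread between these samples only. Members and gene lists were chosen with earlier results of these data known. Genes were named by rule: genes the transgenes encode or target, the Enhancer of split genes, the 20 called genes that rose most and the 20 that fell most with no overlap between arrays, up to 4 called genes per list or family, and defining or called cell type markers. Other genes given with values, such as so, tkv, hh and salm, were chosen after their values were seen. Alternatives covered the filter, the moderation, the scaling, the probe set summary, array weights, a replicate block and each array left out. Same-numbered replicates of GFP and Notch[intra2] deviated from their group means with a correlation of -0.225 across genes, and the labels name no shared batch, so the numbers were not taken to pair samples.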

Additional observations from a re-analysis of the deposited data

Results flagged for a closer look

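In 4 genes the Notch[intra2] arrays and the Delta arrays both differed from GFP but in opposite directions, each at an adjusted p under 0.05 by limma, and the difference between Notch[intra2] and Delta was itself called. krimp, which encodes a Tudor domain protein of the germline piRNA pathway, stood at 6.47 on both GFP arrays, at 5.83 and 5.90 in Delta and at 7.89 and 8.07 in Notch[intra2], with 2.11 between Notch[intra2] and Delta (adjusted p = 2.36e-05). otk, a receptor-like gene linked to Wnt signalling, stood at 9.59 and 9.62 in GFP, 10.10 and 10.01 in Delta and 8.93 and 9.08 in Notch[intra2], with -1.05 between the last 2 (adjusted p = 7.48e-05). CG9436 differed by -0.71 between Notch[intra2] and Delta (adjusted p = 0.000116) and by -0.19 between Notch[intra2] and GFP (adjusted p = 0.0492). Eogt, whose product adds O-GlcNAc to EGF domains such as those of Notch, stood at 9.82 and 9.84 in GFP, 10.08 and 10.12 in Delta and 9.53 and 9.60 in Notch[intra2], with -0.54 between the last 2 (adjusted p = 0.000445). The difference from Delta stayed called for all 4 genes with any 1 of the 10 arrays left out. These values share the Notch[intra2] and GFP arrays.

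Probe sets with no single gene name were outside the comparisons of genes. Tested in the same way, 139 of 2301 were called between Notch[intra2] and GFP, 59 higher and 80 lower. They were not named.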

How the results depend on the processing

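The count of 1144 genes against GFP was 751 in an ordinary linear model and 1831 with array weights, and ran from 545 to 1250 with 1 array left out. Against Delta the 831 genes became 366 in an ordinary linear model and ran from 311 (without Delta replicate 1) to 979. Against the other 3 genotypes the 1850 genes ran from 771 (without Notch[intra2] replicate 1) to 1918. The other alternatives kept these 3 counts within 1.5 times. Scaling moved the share of higher calls. Against GFP it was 45.9% as deposited, 47.1% after a second quantile normalization and 38.6% with each array centred on its median. With centring on the median of the genes tested, chosen after seeing the data, it was 42.0%. Against Delta these shares were, in the same order, 34.1%, 45.8%, 22.4% and 44.5%. Against the other 3 genotypes these shares were 42.5%, 53.3%, 30.1% and 54.0%.

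The replicate number as a block gave 1140, 854 and 1839 genes, and a crossed pairing, chosen after seeing the data, gave 1155, 889 and 1888. Of 130 named genes called against GFP, 128 kept the call under the block, 94 in an ordinary linear model and 92 to 126 with 1 array left out, and none reversed. Genes not called changed sign as follows: with 1 array left out Kr-h1 ran from -0.01 to 0.23, loco from -0.1 to 0.03, phtm from -0.08 to 3.4, Sgs1 from -0.16 to 0.17 and Sgs5 from -0.01 to 0.18, and Sgs1 was -0.01 under either centring. The cause was not tested. Probe sets near the floor understate differences, and 2 arrays per genotype limit the precision.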
